A study of Homo sapiens with 15 samples.

Results

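The 44 genes described here encode the machinery of the mitotic spindle and its checkpoint. They were taken by symbol from a list of mitotic regulators, and each matched 1 of the 61552 Ensembl genes in the deposited count table. RNA was sequenced from MDA-MB-468, an established breast cancer cell line with a high level of the epidermal growth factor receptor (EGFR), in 15 libraries, 3 for each of 5 groups. In the drug experiment the cells went 12 h without serum and were then stimulated with 10 ng/mL EGF, which was given alone (EGF) or with 1 of 2 agents for 12 h. The first agent was 10 µM cSNX1.3 (labelled cSNX), a peptide aimed at the contact of EGFR with a retrograde transport protein, Sorting Nexin 1, on its route to the nucleus. The second was 15 µM erlotinib (labelled ERL), an inhibitor of the EGFR tyrosine kinase. In the line experiment, endogenous EGFR was knocked down with an IPTG-inducible lentiviral hairpin whose vector carries puromycin resistance, and EGFR fused to GFP was put back, either wildtype (shEGFR-WT, here WT) or with mutations in its nuclear localization sequence (shEGFR-NLS, here ΔNLS). All 5 groups received EGF. For both lines, a time without serum and the dose and time of EGF are not given in the sources used here. Neither is whether a line is a clone or a pool, or whether the replicates came from separate cultures, so p-values measure the spread between these libraries, which may be technical.

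A dividing cell enters mitosis when cyclin-dependent kinase 1 is switched on by B-type cyclins. The spindle then captures each chromosome at its kinetochore, and the spindle checkpoint holds back the anaphase-promoting complex until every kinetochore is attached. Most of these genes are transcribed late in the cell cycle, when FOXM1 and B-MYB take over from the repressive DREAM complex at their promoters, and their RNA is therefore widely used as a measure of how many cells of a culture are cycling. In bulk RNA, fewer cells in that phase and less RNA per cell cannot be told apart.

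Late cell cycle promoters are known for a short element, the CHR, close to the transcription start, often with CCAAT boxes upstream of it. RefSeq promoters of GRCh38.p14 were given for 37 of the 44 genes, and FOXM1, BUB3, TTK, BIRC5, UBE2C, TPX2 and PBK were not among them. The CHR was searched on both strands with the letters TTTGAA, with the letters TTTAAA and with the letters TTCGAA, and the CCAAT box likewise by its name, in the 250 bases before the start. A CHR match was present in 27 of the 37 genes (73.0%), against 26.5% of the 27305 genes with a promoter in the table. In the 60 bases before the start the shares were 54.1% and 6.6%. At least 2 CCAAT boxes were present in 56.8% of the 37 genes, against 11.3% of all, and a CHR with at least 1 CCAAT box in 64.9%, against 9.7%. A match is a run of letters and does not say that a factor binds there. The 120 bases before the start are printed 5′ to 3′ on each gene's own strand to show how these letters sit near the start, for the kinase CDK1, its partner CCNB1 and PLK1, and for the 3 genes with a match that had the largest difference between the lines, with CHR and CCAAT matches in capitals, where ATTGG is the CCAAT box on the other strand. They lie at chr10:60778358-60778477 (plus strand), chr5:69167030-69167149 (plus), chr16:23678769-23678888 (plus), chr5:138178992-138179111 (plus), chr10:128126424-128126543 (minus) and chr1:214603075-214603194 (plus).
CDK1: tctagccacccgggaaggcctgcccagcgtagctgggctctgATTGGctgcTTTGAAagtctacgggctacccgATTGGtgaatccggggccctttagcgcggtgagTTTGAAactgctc
CCNB1: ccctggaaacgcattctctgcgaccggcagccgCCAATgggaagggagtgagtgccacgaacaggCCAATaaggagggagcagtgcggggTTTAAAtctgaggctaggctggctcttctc
PLK1: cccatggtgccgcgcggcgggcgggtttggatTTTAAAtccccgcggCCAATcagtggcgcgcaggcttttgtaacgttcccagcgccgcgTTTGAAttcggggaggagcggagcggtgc
KIF20A: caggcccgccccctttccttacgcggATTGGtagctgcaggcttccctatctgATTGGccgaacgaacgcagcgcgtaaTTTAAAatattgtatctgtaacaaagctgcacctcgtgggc
MKI67: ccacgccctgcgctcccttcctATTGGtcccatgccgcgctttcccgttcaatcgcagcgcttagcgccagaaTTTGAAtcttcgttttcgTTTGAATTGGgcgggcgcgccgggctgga
CENPF: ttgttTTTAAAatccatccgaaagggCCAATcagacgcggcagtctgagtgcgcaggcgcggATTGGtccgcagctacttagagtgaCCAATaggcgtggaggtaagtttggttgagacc
The CHR nearest the start began 13 bases before it in CDK1, 30 in CCNB1, 29 in PLK1, 41 in KIF20A and 29 in MKI67, where it shares 1 base with a CCAAT box. In CENPF it began 115 bases before the start, upstream of all 3 CCAAT boxes.

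Counts on genes summed to between 22915676 and 35900649 per library. EGFR RNA, the target of the knockdown, was 4917, 4318 and 4963 CPM (gene counts scaled to library size with edgeR's TMM) with EGF, 1424, 1147 and 1450 CPM in WT and 1688, 1746 and 1746 CPM in ΔNLS, and counts from the endogenous gene and from the construct cannot be told apart. EGFR RNA was higher in ΔNLS than in WT, with a log2 fold change of 0.37 (SE 0.09, edgeR's adjusted p = 0.00367), and the part of this difference in the results for the lines was not tested. DUSP6, a phosphatase induced by ERK signaling, fell from 12.8 ± 0.902 to 0.416 ± 0.173 CPM with erlotinib (SD, n = 3 each). The epithelial markers EPCAM and KRT8 were at no less than 353.8 and 2598 CPM in the group means, and the group means of the hormone receptors PGR and ESR1 and of ERBB2 were 0, 4.21 to 7.18 and 29.1 to 102 CPM. The 11 markers chosen for leukocytes, endothelium, fibroblasts and NK cells summed to 15.6 to 25.2 CPM per library. Of these, COL1A1 held 9.42 to 20.6 CPM in the group means, the endothelial marker PECAM1 1.17 to 5.18 CPM and the NK cell marker NCAM1 0.498 to 3.05 CPM. Each of the others was at most 0.681 CPM (VWF), with PTPRC, DCN and KLRD1 at most 0.158, 0 and 0 CPM.

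Of the 44 genes, 43 passed the filter on low counts. NUSAP1, a microtubule-binding protein of the spindle (chr15:41320794-41381050), did not pass, with 47 counts in all 15 libraries, and PRC1, a bundler of the central spindle, had 963. In GENCODE 44 a second, overlapping gene holds 2938 exonic bases of NUSAP1 and another holds 3181 of PRC1 on the same strand. The part of this overlap in their low counts was not tested. Per kilobase of all annotated exons, the mean level with EGF ran from 138 CPM for CDC20 and 66.9 CPM for MELK down to 5.70 CPM for CDC25C and 2.64 CPM for CENPE, before PRC1 and NUSAP1 at 0.367 and 0.0462 CPM.

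The summed level of the 43 genes was 4560 ± 94.7 CPM with EGF, 4022 ± 102 CPM with cSNX1.3, 4631 ± 181 CPM with erlotinib, 2730 ± 128 CPM in WT and 6084 ± 418 CPM in ΔNLS (SD, n = 3 each). The group mean was highest in ΔNLS for 36 genes, with EGF for CCNB1, PLK1, CDC20 and PTTG1, and with erlotinib for CCNB2, CENPA and NEK2. It was lowest in WT for 38 genes, with cSNX1.3 for CDK1, SPC25, KIF11 and HMMR, and with erlotinib for BUB3. The heat map shows this order gene by gene.

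**Figure D1:**
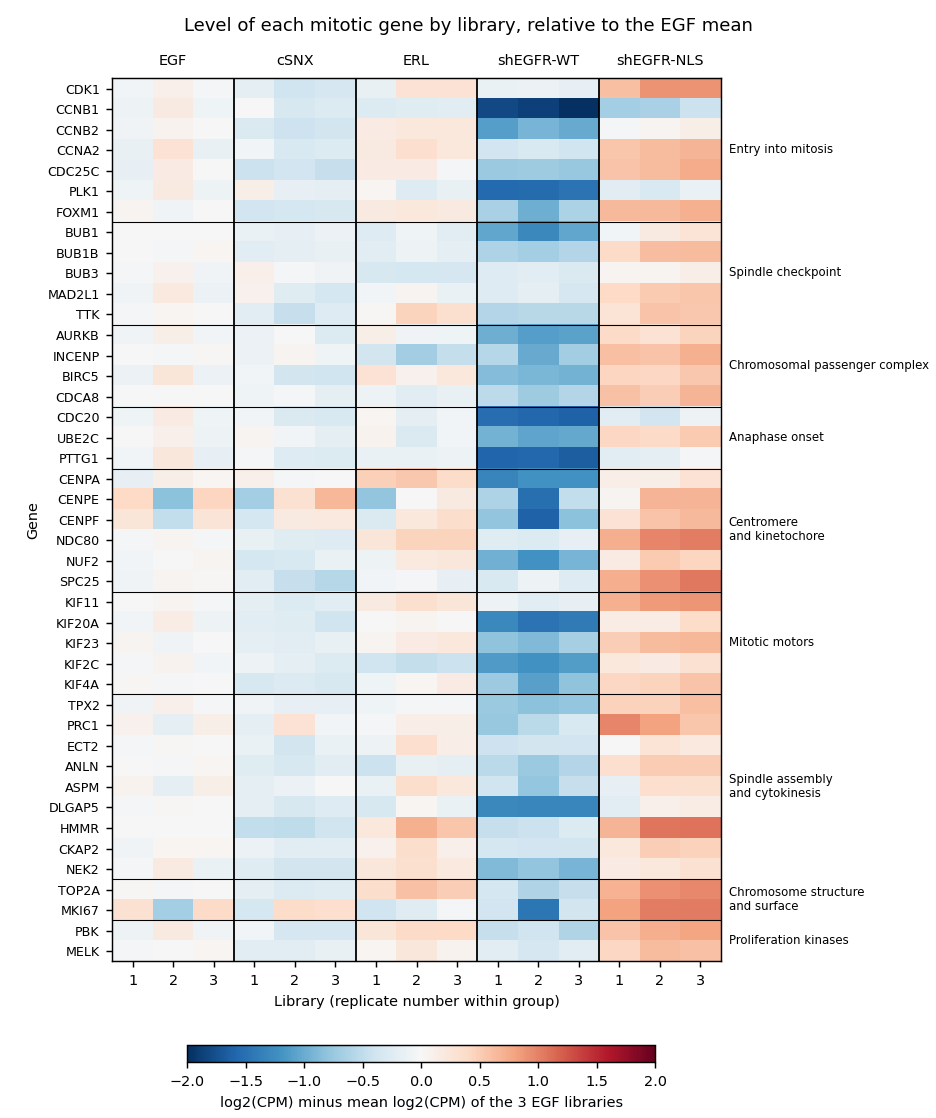
Level of each of the 43 tested genes (rows, grouped by role) in each of the 15 libraries (columns), as log2(CPM) minus the mean log2(CPM) of the 3 EGF libraries. WT is blue for nearly all rows and ΔNLS red for most, while the drug groups stay close to EGF. CENPE, CENPF and MKI67 differ between replicates of 1 group.

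The comparison of ΔNLS with WT asks what changes when the receptor put back lacks a working nuclear localization sequence. All 43 genes tested were higher in ΔNLS (edgeR's quasi-likelihood test, Benjamini-Hochberg adjusted p under 0.05), against 20.4% of all 15805 genes called higher and 21% called lower. The median log2 fold change was 1.30, a 2.46-fold difference, against a median of 0.01 over all genes, and the values ran from 0.34 for BUB3 to 1.61 for KIF20A.

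Among the genes for entry into mitosis, CDK1, the kinase that starts mitosis, was at 107, 108 and 104 CPM in WT and 179, 219 and 217 CPM in ΔNLS. CCNB1, its cyclin B1 partner, was at 42.8, 41.3 and 37.9 CPM in WT and 93.5, 95.5 and 111 CPM in ΔNLS. The log2 fold change was 0.95 (SE 0.08, edgeR's adjusted p = 1.09e-07) for CDK1 and 1.30 (SE 0.08, edgeR's adjusted p = 3.66e-09) for CCNB1, and neither gene's groups overlapped. PLK1, the Polo-like kinase of mitotic entry and spindle formation, was at 46.2, 46.8 and 48.6 CPM in WT and 117, 110.2 and 124 CPM in ΔNLS, a log2 fold change of 1.31 (SE 0.07, edgeR's adjusted p = 6.64e-10). FOXM1, the transcription factor that drives many of these promoters, rose from 36.5 ± 4.61 to 97.7 ± 2.55 CPM (SD, n = 3 each), 2.68-fold. FOXM1 shares 782 exonic bases with ITFG2 on the opposite strand, and strand was not used in the counting. The others, CCNB2, CCNA2 and the phosphatase CDC25C, which activates CDK1, had log2 fold changes of 1.06, 0.99 and 1.38.

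The spindle checkpoint held the smallest change of a single gene. BUB3, which brings BUB1 to kinetochores and is also present outside mitosis, was at 177, 183 and 174 CPM in WT and 221, 221 and 234 CPM in ΔNLS, a log2 fold change of 0.34 (SE 0.07, edgeR's adjusted p = 0.000568). MAD2L1, the subunit that binds and blocks CDC20, was 1.68-fold higher, the kinase TTK 2.04-fold, BUB1B 2.25-fold and the kinase BUB1 2.39-fold. BUB1 was at 45.5, 38.5 and 45.8 CPM in WT and 90.1, 106 and 114 CPM in ΔNLS, with no overlap.

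The chromosomal passenger complex corrects faulty attachments and its 4 subunits changed by similar amounts, with log2 fold changes of 1.42 for the kinase AURKB, 1.38 for its scaffold INCENP, 1.37 for survivin (BIRC5) and 1.19 for borealin (CDCA8). AURKB was at 27.3, 25.2 and 25.7 CPM in WT and 70.04, 65.8 and 73.3 CPM in ΔNLS. The 3 genes of anaphase onset were close to each other as well. CDC20, the activator of the anaphase-promoting complex that the checkpoint blocks, was at 96.5, 93.1 and 90.03 CPM in WT and 237, 212 and 258 CPM in ΔNLS, a log2 fold change of 1.34 (SE 0.08, edgeR's adjusted p = 1.36e-09). The ubiquitin-conjugating enzyme UBE2C and securin (PTTG1), whose destruction releases separase, had log2 fold changes of 1.45 and 1.46.

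At the centromere, CENPA, the histone H3 variant that marks it, was at 15.3, 16.5 and 16.5 CPM in WT and 42.01, 41.3 and 46.9 CPM in ΔNLS, 2.69-fold higher, and the NDC80 complex subunits NDC80, NUF2 and SPC25, which grip microtubules, were 2.21-, 2.65- and 2.17-fold higher. CENPF, a large outer kinetochore protein, was at 70.5, 39.6 and 68.6 CPM in WT and 148, 179.8 and 191 CPM in ΔNLS, with a log2 fold change of 1.54 (SE 0.22, edgeR's adjusted p = 0.00124). Of the motors, KIF20A, a kinesin of the central spindle, was at 60.1, 52.6 and 54.9 CPM in WT and 161, 162 and 189 CPM in ΔNLS, the largest change of the group at 1.61 (SE 0.08, edgeR's adjusted p = 3.03e-10). KIF11, which pushes the spindle poles apart, changed least of the 5 motors, 1.97-fold, and KIF2C, KIF23 and KIF4A were 2.60-, 2.59- and 2.54-fold higher.

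The 9 tested genes of spindle assembly and cytokinesis had a median log2 fold change of 1.09. The exchange factor ECT2, which positions the cleavage furrow, and the spindle-pole protein ASPM changed least among them, with 0.55 and 0.72, and HMMR, a spindle-assembly factor, changed most, with 1.34. TOP2A, the topoisomerase that untangles sister chromatids, rose from 189 ± 16.3 CPM in WT to 474 ± 44.5 CPM in ΔNLS (SD, n = 3 each), with 1.33 (SE 0.08, edgeR's adjusted p = 4.27e-09) on the log2 scale. MKI67, which encodes the Ki-67 protein that coats mitotic chromosomes, was at 104, 49.6 and 105 CPM in WT and 235, 273 and 277 CPM in ΔNLS, a log2 fold change of 1.60 (SE 0.28, edgeR's adjusted p = 0.00393). The second WT library was lower than the other 2 for MKI67, and the groups did not overlap. The kinases MELK and PBK were 1.74- and 2.28-fold higher. Leaving out any 1 of the 6 libraries kept 43 genes called, where the calls over all genes numbered 5191 to 6559. Among the 36 tested genes with a promoter sequence, the median log2 fold change was 1.31 for the 26 with a CHR match before the start and 1.12 for the 10 without, with overlapping ranges of 0.55 to 1.61 and 0.75 to 1.42. For TTTGAA alone it was 1.31 for the 21 with a match and 1.30 for the 15 without.

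**Figure D2:**
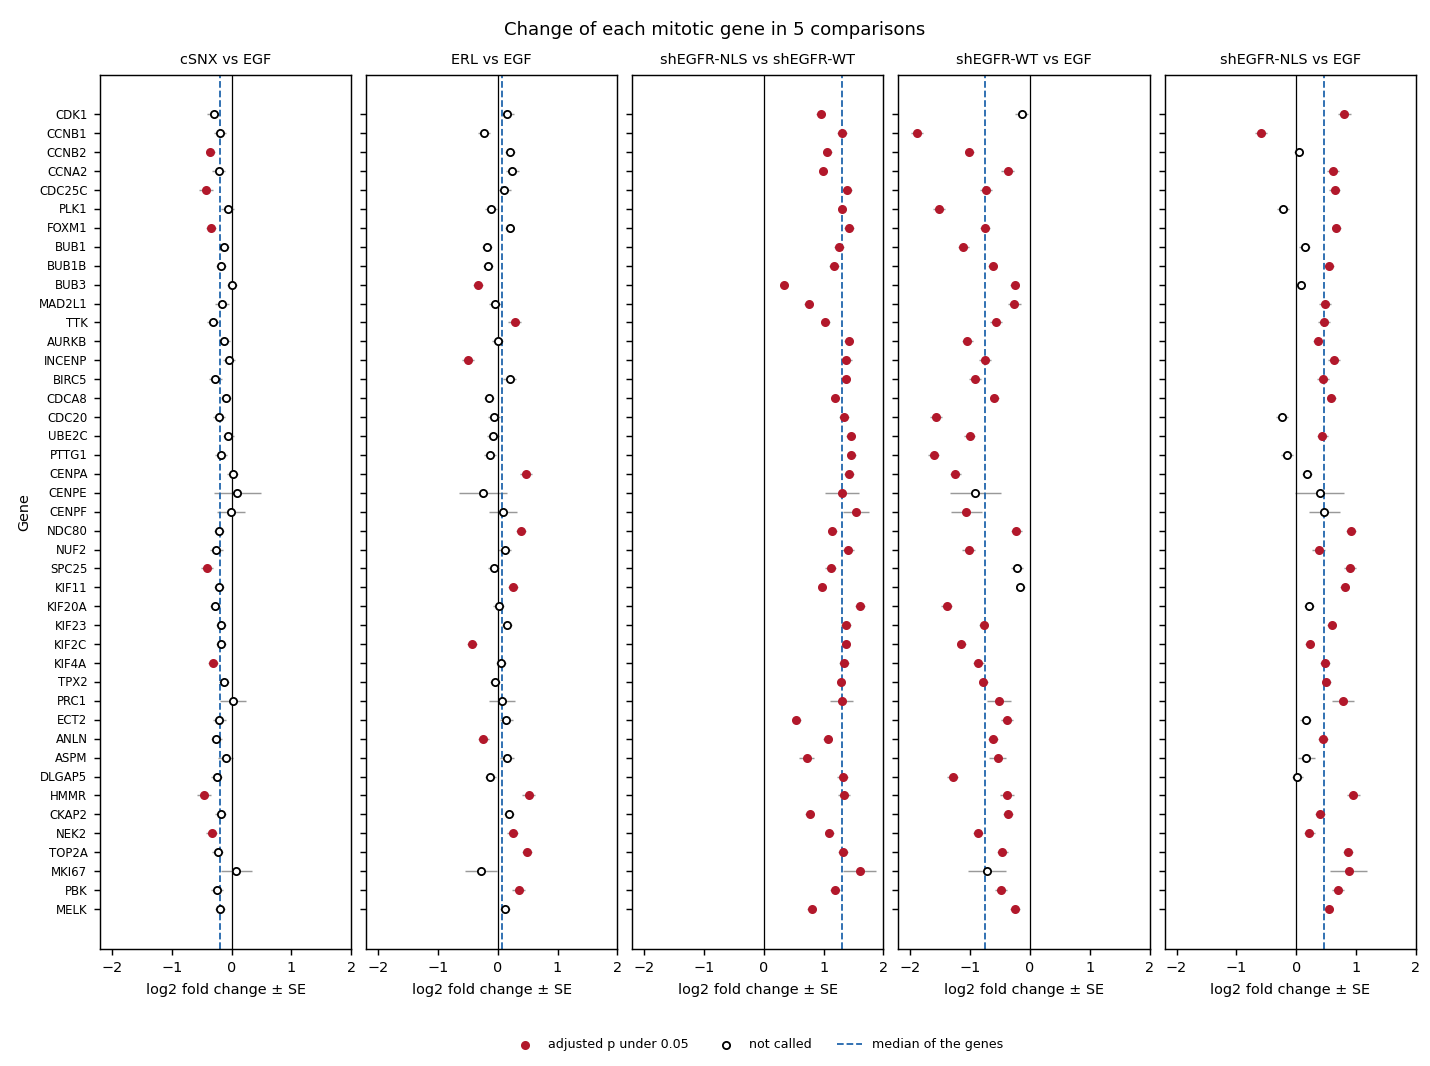
log2 fold change (horizontal axis) with its SE for each of the 43 genes (rows) in 5 comparisons, filled where edgeR's adjusted p was under 0.05, with the median of the genes as a dashed line. All points lie to the right of 0 in ΔNLS vs. WT (median 1.30) and to the left in WT vs. EGF (median -0.75). In both drug comparisons they lie close to 0.

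Set against cells without the constructs given EGF alone, the lines lay on different sides. These comparisons share the EGF libraries with each other and with those of the drugs, and WT or ΔNLS with the comparison of the lines. They also differ from EGF by the knockdown, IPTG, the construct and culture, which cannot be told apart. Whether the lines went without serum, and for how long they had EGF, is not given, so these may differ from the EGF group too. In WT vs. EGF 38 of the 43 genes were lower and none higher (edgeR's adjusted p under 0.05), against 23.7% of all 16524 genes called lower and 23.4% called higher. No gene was higher at an unadjusted p under 0.05 or by DESeq2, which called 36 lower. Of all 16524 genes DESeq2 called 3912 higher and 3910 lower. The median log2 fold change was -0.75, against -0.01 over all genes. In ΔNLS vs. EGF 29 genes were higher, against 18.9% of all genes, and 1 was lower, against 18.3%, with a median of 0.47.

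Within WT vs. EGF the genes did not fall alike. The largest falls were those of CCNB1 with a log2 fold change of -1.89 (SE 0.10, edgeR's adjusted p = 4.72e-12), PTTG1 with -1.61, CDC20 with -1.58 and PLK1 with -1.53. CCNB1 went from 140.1, 171 and 142 CPM with EGF to the WT values above, and to 100.1 ± 9.83 CPM in ΔNLS (SD, n = 3), where it remained below EGF with a log2 fold change of -0.59 (SE 0.10, edgeR's adjusted p = 6.49e-05). It was the 1 gene called lower in ΔNLS. CDC20 was at 262, 311 and 262 CPM with EGF, which overlapped neither line, and its log2 fold change in ΔNLS vs. EGF was -0.24 (SE 0.10, edgeR's adjusted p = 0.0572). PLK1 was at 128, 154 and 127 CPM with EGF, with -0.22 (SE 0.10, edgeR's adjusted p = 0.0817) in ΔNLS vs. EGF.

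Other genes were not called in WT vs. EGF and were higher in ΔNLS. CDK1 was at 113, 125 and 114 CPM with EGF, with log2 fold changes of -0.14 (SE 0.10, edgeR's adjusted p = 0.276) in WT and 0.81 (SE 0.10, edgeR's adjusted p = 4.15e-06) in ΔNLS. KIF11 was at 67.9, 70.9 and 66.6 CPM with EGF, 63.9, 58.5 and 61.1 CPM in WT and 112, 123 and 126 CPM in ΔNLS, with -0.16 (SE 0.07, edgeR's adjusted p = 0.0756) in WT and 0.81 (SE 0.07, edgeR's adjusted p = 3.27e-08) in ΔNLS. SPC25 had log2 fold changes of -0.22 in WT, which was not called, and 0.90 in ΔNLS. The largest rises in ΔNLS vs. EGF were those of HMMR with 0.96 (SE 0.11, edgeR's adjusted p = 1.18e-06), NDC80 with 0.92 and SPC25. For these, for TOP2A (0.86) and for MKI67 (0.88, SE 0.31, edgeR's adjusted p = 0.0416) the ΔNLS libraries were all above the EGF libraries. FOXM1 had log2 fold changes of -0.75 in WT and 0.67 in ΔNLS, BUB1 -1.12 and 0.14, MAD2L1 -0.26 and 0.49, AURKB -1.05 and 0.37, and CENPA -1.25 and 0.18, of which the ΔNLS values of BUB1 and CENPA were not called. TOP2A had -0.46 in WT, which was called. The 5 genes not called in WT vs. EGF were CDK1, KIF11, SPC25, MKI67 and CENPE, and this depended on the fit. With offsets for GC content and transcript length all 43 were called lower, against 4106 of all 16524 genes. CDK1 then had -0.32 (SE 0.07, edgeR's adjusted p = 0.000784), KIF11 -0.27 and SPC25 -0.40, while in ΔNLS vs. EGF these 3 had 0.77, 0.80 and 0.83.

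**Figure D3:**
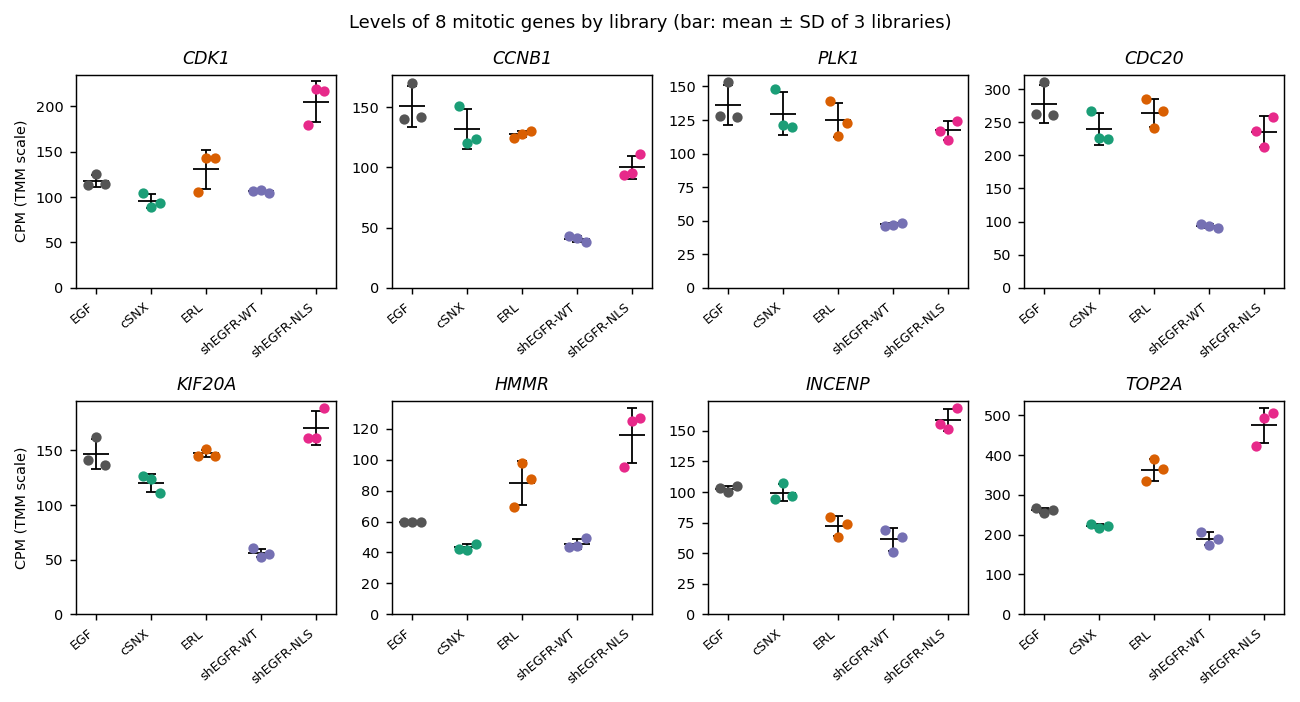
CPM on the TMM scale (vertical axis, from 0) of 8 of the genes in each library (points) with the mean ± SD of the 3 libraries of a group (bars). CCNB1, PLK1, CDC20 and KIF20A drop in WT, and CDK1 and TOP2A lie above EGF in ΔNLS. The cSNX1.3 libraries of HMMR lie under those with EGF and the erlotinib libraries over them, while INCENP lies under EGF with erlotinib.

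In cSNX1.3 vs. EGF 7 of the 43 genes were lower and the other 36 were not called. The median log2 fold change of the 43 genes was -0.20, a 1.15-fold fall, against 0.00 over all 15738 genes, and 38 of 43 had a negative value. The share called lower over all genes was 2.69%, and none of the 43 was called higher, against 3.38%. No gene was higher at an unadjusted p under 0.05, where 22 were lower and the share over all genes is not given here. By DESeq2 none was higher and 8 were lower, against 673 higher and 491 lower of all 15738 genes. The 7 were HMMR, CDC25C, SPC25, CCNB2, FOXM1, NEK2 and KIF4A. HMMR was at 59.5, 60.01 and 59.6 CPM with EGF and 42.4, 41.8 and 45.5 CPM with cSNX1.3, without overlap, a log2 fold change of -0.46 (SE 0.11, edgeR's adjusted p = 0.0185). CDC25C was at 16.8, 21.2 and 18.9 CPM with EGF and 13.97, 14.4 and 13.8 CPM with cSNX1.3, with -0.43 (SE 0.11, edgeR's adjusted p = 0.0279). SPC25 had -0.41 (SE 0.10, edgeR's adjusted p = 0.0189). Of the 12 genes set out by name, FOXM1 was called, going from 63.6, 58.3 and 61.8 CPM to 47.04, 47.8 and 49.1 CPM with -0.35 (SE 0.08, edgeR's adjusted p = 0.0164). CDK1 had -0.30, CCNB1 -0.19, PLK1 -0.07, BUB1 -0.13, MAD2L1 -0.16, AURKB -0.12, CDC20 -0.21, CENPA 0.02, KIF11 -0.22, TOP2A -0.23 and MKI67 0.08, of which none passed. The number of edgeR's calls was small and depended on single libraries. It was 3 without EGF replicate 1, 1 without EGF replicate 3, 0 without cSNX1.3 replicate 2 and 2 without cSNX1.3 replicate 3, and no call was higher in any of these. Over all genes the calls were 531, 592, 526 and 668, in this order, against 956 with all libraries, so calls over all genes fell as well.

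In ERL vs. EGF 31 of the 43 genes were not called. Of the others, 8 were higher, against 22.8% of all genes, and 4 lower, against 21.2%, which as shares of the 43 do not exceed those of all genes, with a median log2 fold change of 0.07 against 0.01 over all genes. HMMR rose to 69.2, 97.8 and 87.9 CPM, above all EGF libraries, with 0.52 (SE 0.11, edgeR's adjusted p = 0.0012). TOP2A went from 266, 253 and 263 CPM to 334, 389.5 and 365 CPM with 0.49 (SE 0.09, edgeR's adjusted p = 0.000331), and CENPA from 34.2, 41.6 and 39.1 CPM to 53.3, 55.6 and 49.4 CPM with 0.47 (SE 0.09, edgeR's adjusted p = 0.000697). The other 5 higher genes were NDC80 (0.39), PBK (0.35), TTK (0.28), KIF11 (0.26) and NEK2 (0.25), and the TTK libraries overlapped those with EGF. The 4 lower genes were INCENP, which went from 103, 100.2 and 105 CPM to 79.7, 63.1 and 74.05 CPM with -0.50 (SE 0.10, edgeR's adjusted p = 0.000593), KIF2C, a kinesin that takes microtubules apart, with -0.43 (SE 0.08, edgeR's adjusted p = 0.000529), BUB3 with -0.33 (SE 0.08, edgeR's adjusted p = 0.00478) and the furrow protein ANLN with -0.25 (SE 0.09, edgeR's adjusted p = 0.0405). CDK1 had 0.16, CCNB1 -0.23, PLK1 -0.11, FOXM1 0.20, BUB1 -0.18, MAD2L1 -0.04, AURKB -0.00, CDC20 -0.06 and MKI67 -0.28, and none of these was called.

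The balance of higher and lower genes with erlotinib depended on whether GC content and transcript length were corrected for. With offsets for both in the fit, 6 genes were called higher and 10 lower, and the median log2 fold change was -0.00. Of all 15738 genes, 3731 were then called higher and 3937 lower, where the fit without offsets had 3589 and 3343. As shares, the calls among the mitotic genes did not exceed those of all genes in either direction. HMMR, TOP2A and CENPA were still higher, with 0.33, 0.41 and 0.39, and INCENP, KIF2C, BUB3 and ANLN still lower, with -0.37, -0.41, -0.37 and -0.32. The genes called lower further included CCNB1 and BUB1, with -0.35 (SE 0.08, edgeR's adjusted p = 0.00262) and -0.23 (SE 0.06, edgeR's adjusted p = 0.00497). Without EGF replicate 1, EGF replicate 3 or ERL replicate 3 the number of calls was 7, with 4 higher and 3 lower in each case. Over all genes it was 5661, 5716 and 5784, in this order, against 6932 with all libraries.

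Compared directly, cells given cSNX1.3 had lower levels of 22 of the genes than cells given erlotinib, against 28.5% of all genes, and higher levels of 3, against 27.6%, with a median log2 fold change of -0.30 against -0.01. The agents were used at 10 and 15 µM. The largest differences were those of HMMR with -0.98 (SE 0.11, edgeR's adjusted p = 1.87e-06), TOP2A with -0.72 and NDC80 with -0.61, and the 3 higher genes were INCENP (0.45), BUB3 (0.33) and KIF2C (0.25). CDK1 was lower with cSNX1.3 by the same test (-0.46, SE 0.11, edgeR's adjusted p = 0.00221), as were FOXM1 (-0.55), KIF11 (-0.47) and CENPA (-0.45). The values for CCNB1 (0.04), PLK1 (0.05), BUB1 (0.04), MAD2L1 (-0.12), AURKB (-0.12), CDC20 (-0.15) and MKI67 (0.36) did not pass. With the offsets for GC content and length, 16 were lower and 4 higher, and the median was -0.13. Of all 15738 genes, 4500 were then lower and 4836 higher, where the fit without offsets had 4488 and 4336. As shares, the lower calls among the mitotic genes still exceeded those of all genes, and the higher calls did not.

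The ΔNLS effect and the effects of the agents use separate libraries, so their difference was tested as an interaction over all 15. The ΔNLS effect exceeded the cSNX1.3 effect in 42 of 43 genes, against 11.3% of all 16524 genes, with a median difference of 1.42 on the log2 scale, and exceeded the erlotinib effect in 43, against 22.6%, with a median of 1.24. The largest differences from cSNX1.3 were those of KIF20A (1.90, SE 0.12, edgeR's adjusted p = 4.52e-10), CDC25C (1.82) and HMMR (1.81). The largest from erlotinib were those of MKI67 (1.89, SE 0.44, edgeR's adjusted p = 0.00395), INCENP (1.88) and KIF2C (1.81). The differences from cSNX1.3 and from erlotinib, in this order, were 1.25 and 0.80 for CDK1, 1.50 and 1.54 for CCNB1, 1.38 and 1.44 for PLK1 and 1.77 and 1.23 for FOXM1. They were 1.39 and 1.44 for BUB1, 0.91 and 0.80 for MAD2L1, 1.54 and 1.43 for AURKB and 1.56 and 1.41 for CDC20. CENPA had 1.41 and 0.96, KIF11 1.19 and 0.73, TOP2A 1.56 and 0.85, and MKI67 1.52 against cSNX1.3. The gene not called against cSNX1.3 was CENPE, with 1.21 (SE 0.59, edgeR's adjusted p = 0.171).

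CENPE, a kinesin of the kinetochore, CENPF, MKI67 and ASPM have transcripts of more than 8000 bases, and the level of the first 3 varied visibly between replicates. CENPE was at 32.2, 13.8 and 32.6 CPM with EGF and 15.2, 30.1 and 38.4 CPM with cSNX1.3, and MKI67 at 166, 84.3 and 175 and 106, 173 and 170.2 CPM. The low values fell in EGF replicate 2, cSNX1.3 replicate 1, ERL replicate 1, WT replicate 2 and ΔNLS replicate 1. Genes with at least 50 counts in every library were also compared by counts scaled to the library total, without TMM. In the same 5 libraries the median of 972 genes with transcripts over 8000 bases deviated from the group mean by -0.1 to -0.191 (log2). That of 1625 genes with transcripts of up to 1500 bases deviated by 0.024 to 0.059. Without these 5 libraries, a choice made after seeing the data, MKI67 was lower with erlotinib, with a log2 fold change of -0.46 (SE 0.08, edgeR's adjusted p = 4.69e-05) in place of -0.28, and lower in WT vs. EGF, with -0.71 (SE 0.07, edgeR's adjusted p = 2.68e-09). In ΔNLS vs. WT, MKI67, CENPF and CENPE then had 1.40, 1.42 and 1.24 in place of 1.60, 1.54 and 1.31, and all 43 genes were called. Over the 43 genes, 13 were then called lower and none higher with cSNX1.3, and 14 higher and 6 lower with erlotinib. Of all 15889 genes, 631 were then called lower and 856 higher with cSNX1.3, and 3963 higher and 4017 lower with erlotinib. With all libraries, 956 and 6932 of all 15738 genes were called, so calls over all genes rose as well. As shares, the higher calls with erlotinib among the 43 genes exceeded those of all genes in this fit, unlike with all libraries, and the lower calls did not.

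**Figure D4:**
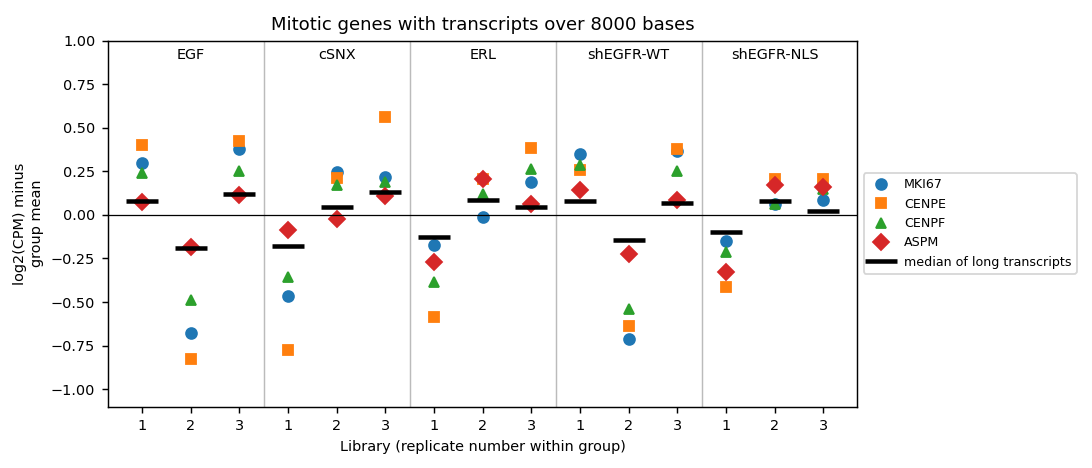
log2(CPM) minus the mean of the group (vertical axis) for MKI67, CENPE, CENPF and ASPM in each library (horizontal axis). Black bars are the median of 972 genes with transcripts over 8000 bases and at least 50 counts in every library. The points are on the TMM scale, and the bars use counts scaled to the library total. In 1 library of each group the 4 genes and the median lie below 0 together, and MKI67, CENPE and CENPF lie farther below it than the median.

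Other genes of the cell cycle, from 8 lists written by hand, are given for comparison, read against the shares of all genes called above. Other mitotic kinases, phosphatases and cyclins had 21 of 22 higher in ΔNLS vs. WT (median 1.03), led by TROAP, a spindle protein, with 2.04, and 14 lower and 1 higher in WT vs. EGF (median -0.70). Other motors and spindle proteins had 19 of 22 higher (median 0.95), led by the kinesin KIF18B with 1.81 (SE 0.23, edgeR's adjusted p = 0.000318), and 15 lower in WT vs. EGF. The constitutive centromere network had 16 of 21 higher in ΔNLS vs. WT (median 0.59), led by HJURP, the chaperone that loads CENPA, with 1.33. Condensin, cohesin and separase had 13 of 20 higher and 1 lower (median 0.56), led by separase (ESPL1) with 1.39 and against it PDS5B with -0.20. Other outer kinetochore and checkpoint genes had 12 of the 17 tested higher (median 0.54), led by SPC24, the partner of SPC25, with 1.49. The DREAM and retinoblastoma family had 10 of 17 higher (median 0.28), led by E2F8 with 1.03. In WT vs. EGF the centromere network had 8 genes higher and 5 lower (median 0.05), and condensin, cohesin and separase 6 and 6 (0.05). Other outer kinetochore and checkpoint genes had 5 higher and 7 lower (median -0.17), and the DREAM and retinoblastoma family 9 and 3 (0.28).

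The anaphase-promoting complex, which these mitotic genes control and whose subunits are present through the cell cycle, had 3 of 17 genes higher in ΔNLS vs. WT and 1 lower, with a median of -0.07. The highest was UBE2S, an E2 enzyme that extends its ubiquitin chains, with 1.39 (SE 0.08, edgeR's adjusted p = 7.81e-10), and the lower gene was ANAPC13 with -0.25. In WT vs. EGF 5 of 17 were higher and 3 lower (median 0.08). With erlotinib 2 of 17 were higher and 3 lower, from ANAPC16 at 0.57 to UBE2S at -0.59.

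DNA replication genes, which act in S phase, were higher in ΔNLS vs. WT for 18 of 28 genes and lower for 1 (median 0.35), led by the thymidine kinase TK1 with 1.28, and the lower gene was MCM6, a subunit of the replicative helicase, with -0.30. In WT vs. EGF 22 were higher and TK1 lower (-0.39), with a median of 0.48 where the 43 mitotic genes had -0.75. In ΔNLS vs. EGF all 28 were higher (median 0.82), against 18.9% of all genes. Of the 43 mitotic genes, 29 were higher there (median 0.47). The mean log2(CPM + 0.5) of the 28 genes was 6.34 to 6.39 in the EGF libraries and 6.72 to 6.81 in WT, while that of the 43 mitotic genes was 6.36 to 6.38 with EGF and 5.52 to 5.65 in WT. Time without serum and time with EGF are not given for WT, and their part in this was not tested. With erlotinib 16 replication genes were lower, led by CLSPN, a checkpoint mediator of replication, with -1.28 (SE 0.25, edgeR's adjusted p = 0.00194), and 2 higher, led by TK1 (0.45), with a median of -0.30. With cSNX1.3, 3 were lower, led by the helicase cofactor CDC45 (-0.43, SE 0.10, edgeR's adjusted p = 0.0114), with a median of -0.16.

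With cSNX1.3, 4 other lists had 1 called gene each. These were ZWINT, which links the checkpoint to the kinetochore, with -0.41 (SE 0.08, edgeR's adjusted p = 0.00523), CENPU (-0.33), the condensin subunit SMC2 (-0.35) and the transcription factor E2F2 (-0.53), all lower. With erlotinib the largest changes are given by list. TUBG1, gamma-tubulin of the centrosome, fell with -1.13 (SE 0.10, edgeR's adjusted p = 3.62e-07) among 7 lower genes of other motors and spindle proteins. In the list headed other mitotic kinases, phosphatases and cyclins, which also holds other proteins such as TROAP, the phosphatase CDC25A fell (-0.84) and DEPDC1 rose (0.59). CENPI fell (-0.77) and CENPS rose (1.04) in the centromere network. Among other kinetochore genes TRIP13 fell (-0.51) and PMF1 rose (0.47). NCAPD3 fell (-0.30) and STAG1 rose (0.51) among condensin and cohesin, and E2F3 fell (-0.51) and RBL2 rose (0.55) in the DREAM and retinoblastoma family.

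**Figure D5:**
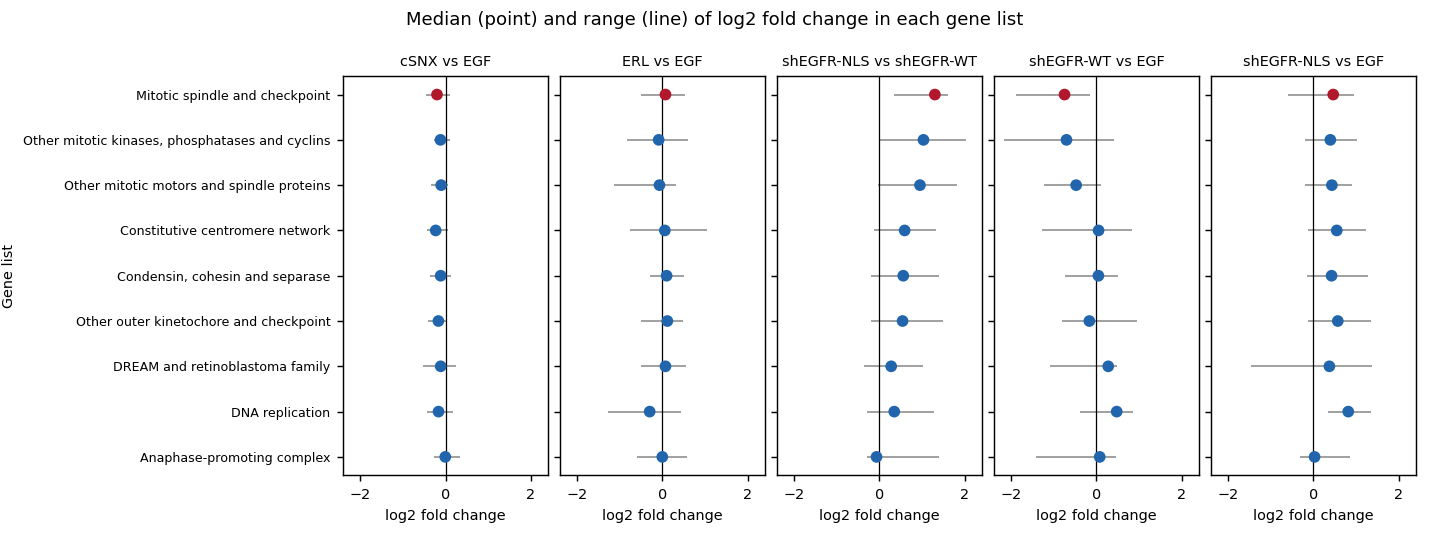
Median log2 fold change (points) and range (lines) of each gene list (rows) in 5 comparisons, with the 43 mitotic spindle and checkpoint genes in red. In WT vs. EGF the mitotic genes lie at -0.75 and the DNA replication genes at 0.48. In ΔNLS vs. WT all lists but the anaphase-promoting complex have a median above 0.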

How the data were processed

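The 15 RNA-seq libraries of the MDA-MB-468 line were placed in 5 groups of 3 by their labels. The authors used TrimGalore for trimming, STAR for alignment (GRCh38) and featureCounts, with read pairs and no strand, for counting, and deposited the raw counts of 61552 Ensembl genes. The release of their annotation is not given in the sources used here. Symbols and transcript lengths came from GENCODE 44, which held 61399 of the IDs.

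Counts were tested here with edgeR 4.0.16 (R 4.3.3): TMM scaling, filterByExpr by group, a robust quasi-likelihood fit and Benjamini-Hochberg adjustment over all genes tested, with a threshold of 0.05. On simulated data the share of false calls ran somewhat above this threshold in most comparisons, and few of the smallest changes were found. The drug comparisons used 9 libraries, ΔNLS vs. WT 6, and the comparisons of lines with EGF and the interactions all 15. CPM are on the TMM scale of all 15 libraries, and log2 fold changes and SEs come from the fit. Every pair of replicates differed by more than sampling noise (chi-square per degree of freedom 2.60 to 22.3).

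The genes, roles and other lists were chosen with earlier results of these data known. Genes named in every comparison are CDK1, CCNB1, PLK1, FOXM1, BUB1, MAD2L1, AURKB, CDC20, CENPA, KIF11, TOP2A and MKI67, together with the 3 largest called rises and falls, genes called against the majority, and the largest called rise and fall of each other list. The others were named after their values were seen. Alternatives were DESeq2 1.42.0 as size factors and as test, no filter, at least 10 counts in every library, other sets of libraries, the replicate number as a block, offsets for GC content and length, an adjusted p under 0.01, CPM by total counts, a shorter promoter window and leaving out each replicate. The fit without the 5 libraries lowest in long transcripts was added after seeing the data.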

Additional observations from a re-analysis of the deposited data

How the results depend on the processing

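Of the 8 comparisons, the number of mitotic genes called moved by over 1.5 times in 2. In cSNX1.3 vs. EGF it was 7, with 0 at an adjusted p under 0.01, 13 without the 5 libraries lowest in long transcripts, and 0 to 6 when 1 replicate was left out. In ERL vs. EGF it was 12, with 7 at an adjusted p under 0.01, 20 without those 5 libraries, and 7 to 14 when 1 replicate was left out. Over all genes, the number called without those 5 libraries also rose, from 956 to 1487 in cSNX1.3 vs. EGF and from 6932 to 7980 in ERL vs. EGF. At an adjusted p under 0.01 it fell to 470 and 4789, in this order. When 1 replicate was left out it was 526 to 892 and 5661 to 6773. The cause was not tested beyond the stricter threshold and the smaller number of libraries. The smallest and largest counts over the other settings were 42 and 43 in ΔNLS vs. WT, 34 and 43 in WT vs. EGF, 27 and 38 in ΔNLS vs. EGF, 19 and 31 in cSNX1.3 vs. ERL, 40 and 43 for the difference from cSNX1.3 and 40 and 43 for the difference from erlotinib. The median log2 fold change of ERL vs. EGF ranged from -0.00 to 0.12 over 16 settings and the others kept their sign.

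Same-numbered replicates did not pair. Their deviations from the group means correlated between -0.20 and 0.33, and in none of the 10 pairs of groups were all 3 over 0.1. With the replicate number as a block the number called was 5 in cSNX1.3 vs. EGF, 11 in ERL vs. EGF, 25 in cSNX1.3 vs. ERL, 43 in ΔNLS vs. WT, 38 in WT vs. EGF and 30 in ΔNLS vs. EGF. Over all genes the block gave 841, 6707, 8643, 5766, 7903 and 6298 calls, in the same order. With the block and the offsets for GC content and length, 8, 15, 19, 43, 43 and 34 mitotic genes were called. Over all genes these fits called 1432, 7520, 9221, 6306, 8368 and 7191.

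Of 120 values of single genes set out by name, none that was called in either fit changed sign over 2143 refits, 57 refits lost a call and 36 gained one. With CPM by total counts, 10 of 60 group means moved by more than 1 SD. A CHR match was present in 32 of 37 genes over the whole 300 bases, against 29.0% of all genes, and in 31 from 150 bases before the start to 50 after it, against 19.1%. NUSAP1, with 47 counts in all, was not tested and PRC1 had 963, and the cause of these low counts was not tested.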
